A study of Mus musculus with 9 samples.

Results

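Serping1, which encodes the C1 inhibitor, and 8 genes of the complement system (C3, C4b, Cfb, Cfd, Cfi, Cd55, Masp1 and C3ar1) were followed in prostate lesions of mice. The genes were a list of complement components and regulators drawn up with earlier results of these arrays known. A gene was read from the probe set that the array annotation pairs with its symbol alone, and where several exist the brightest by mean log2 intensity over all arrays was to be used. That choice did not arise, because 7 of the 9 genes had exactly 1 such probe set. The remaining genes, C3 and Cfd, had none in the annotation used, so they were not analysed here. The 7 genes were among 22180 symbols measured. Of these, 6 passed the filter on low intensity and were tested, and Masp1, with a mean log2 intensity of 3.23 against the filter's 3.25, was not.

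All animals were 12-month-old males of mixed strain. Control HG-PIN, high-grade prostatic intraepithelial neoplasia, came from 3 mice that carried PbCre and not the T-3Mb-Erg allele. T-3Mb-Erg HG-PIN and T-3Mb-Erg tumour (poorly differentiated adenocarcinoma) came from 3 mice that carried PbCre and T-3Mb-Erg/+, with each of these mice giving 1 capture of either lesion. The 9 arrays thus represented 6 mice. PbCre is a Cre recombinase driven by a probasin promoter, which is active in prostate epithelium. The control lesions were not normal prostate. T-3Mb-Erg is an engineered allele, present on 1 chromosome, and the series as titled concerns the genes that lie between TMPRSS2 and ERG. Epithelial lesions were taken by laser capture from fixed, paraffin-embedded sections, and their RNA was amplified and hybridised to a whole-transcript mouse array.

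Complement is a cascade of mostly liver-made plasma proteins, although epithelial cells, fibroblasts and macrophages also make many of them. The classical pathway starts with C1q and its proteases and the lectin pathway with sugar-binding proteins and the MASP proteases. Both cleave C4 and C2, the alternative pathway runs through factors B and D, and all of them converge on C3. Soluble and membrane-bound regulators hold the cascade in check on host cells.

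Serping1 was higher in the tumours than in either kind of HG-PIN, and in the fit over all 9 arrays it was the only one of the 6 tested genes to pass the test in any comparison. Mean log2 intensity was 4.51 ± 0.45 (SD, n = 3) in control HG-PIN, 5.34 ± 0.75 in T-3Mb-Erg HG-PIN, 8.26 ± 1.13 in tumours. The intensity was 13.4-fold higher in tumours than in control HG-PIN (adjusted p = 0.0288 by limma) and 7.54-fold higher than in HG-PIN of the same mice (adjusted p = 0.0561, not called). C4b, Cfb, Cfi, Cd55 and C3ar1 passed in none of the 3 comparisons of that fit. Among other complement genes, Clu, which encodes clusterin, fell in tumours.

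**Figure D1:**
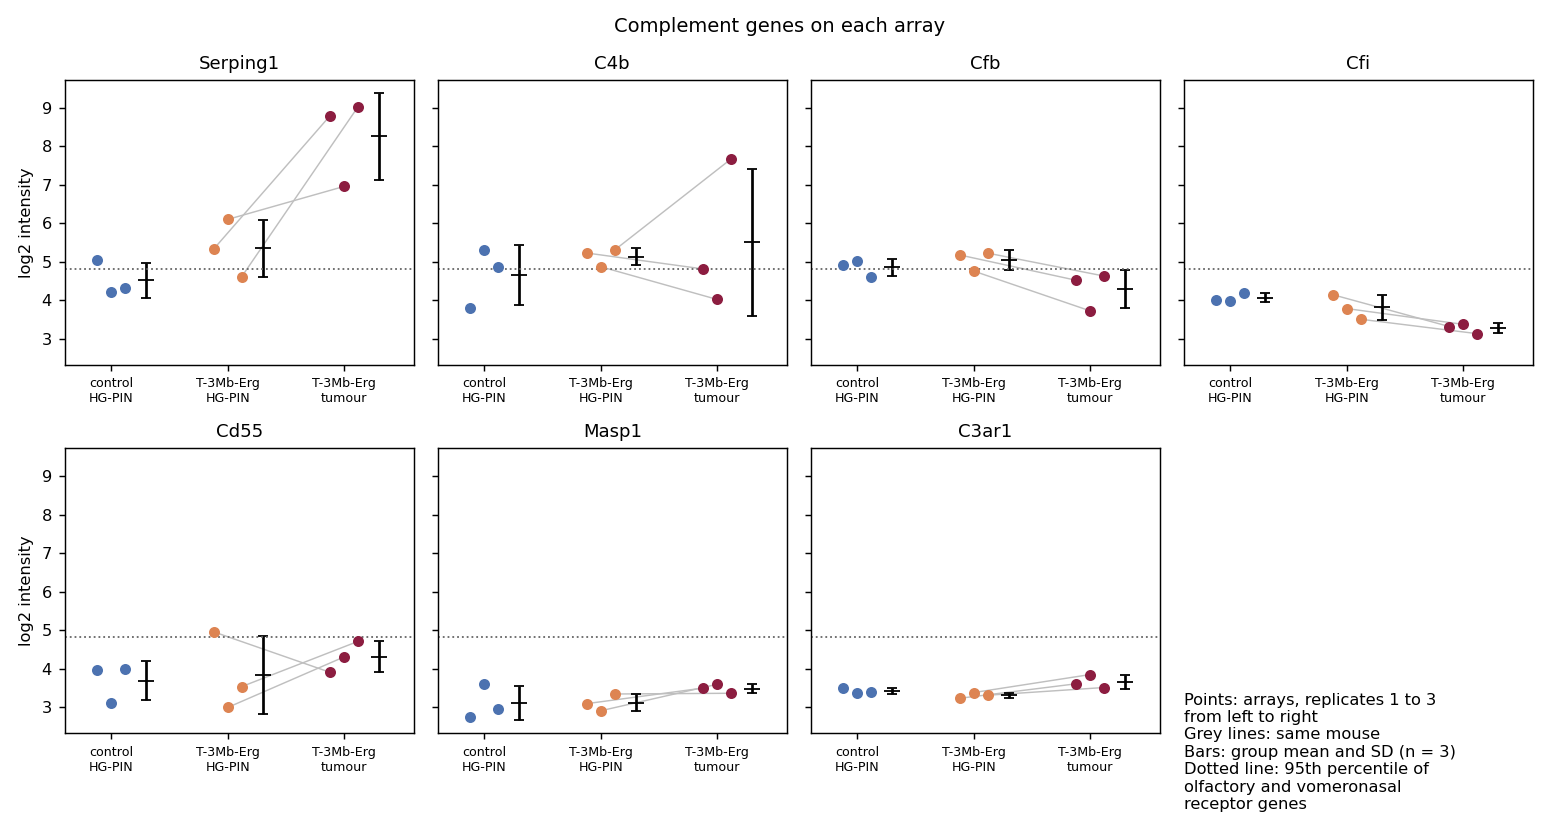
Log2 intensity of the 7 measured genes (vertical axis) on each of the 9 arrays, by group; grey lines join lesions of the same mouse, bars give the group mean and SD (n = 3), and the dotted line at 4.81 is the level below which 95% of olfactory and vomeronasal receptor genes lie. All tumour arrays for Serping1 lie above all HG-PIN arrays, C4b is high on the tumour array of replicate 3 alone, and Cfi, Masp1 and C3ar1 stay below the dotted line on every array.

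Most of the measured genes were dim. As a guide to background, 1390 olfactory and vomeronasal receptor genes were used, whose 95th percentile of mean log2 intensity was 4.81. Only Serping1 and C4b had a mean over all arrays above it, and probe sets differ in brightness, so this comparison is a rough one. Markers of epithelium read high in HG-PIN, where all 10 tested luminal genes had group means above the receptor level. In tumours only 2 of them did. All 10 were lower in tumours than in T-3Mb-Erg HG-PIN, and 9 of them were called by limma over the 9 arrays. Over all 16635 genes tested, the comparison of HG-PIN between genotypes called 0 genes (682 at an unadjusted p under 0.05, limma), tumours against T-3Mb-Erg HG-PIN called 47 (1272 unadjusted) and tumours against control HG-PIN called 30 (1551 unadjusted). These comparisons share arrays, so a gene's differences in them are not independent of each other. In captured tissue, a lower level can come from fewer cells of a type or from less RNA per cell, and these cannot be told apart.

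Among the components, C4b encodes C4, which is cleaved to form part of the classical and lectin convertases. The log2 intensity of C4b was 3.79, 5.30 and 4.85 in control HG-PIN, 5.22, 4.87 and 5.30 in HG-PIN of T-3Mb-Erg mice, and 4.81, 4.02 and 7.67 in tumours (replicates 1, 2 and 3). The tumour of replicate 3 stood far above every other array, while the remaining tumours lay within or below the range of HG-PIN. The tumour mean of 5.50 ± 1.92 (SD, n = 3) was 0.37 above T-3Mb-Erg HG-PIN (SE 0.74, adjusted p = 0.995, limma) and 0.85 above control HG-PIN (SE 0.74, adjusted p = 0.820). Without the tumour of replicate 3 these differences were -0.69 and -0.21, so their sign rested on that array. C4b has a near-identical copy, C4a, and whether the C4b probe set also read C4a was not tested. The probe set paired with C4a had group means of 1.98, 2.71 and 2.04, below the filter.

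Of the proteases, Cfb encodes factor B, the catalytic part of the alternative pathway convertase. On the log2 scale Cfb read 4.91, 5.03 and 4.60 in control HG-PIN, 5.17, 4.75 and 5.22 in HG-PIN of T-3Mb-Erg mice, and 4.51, 3.72 and 4.62 in tumours. All tumours lay below all T-3Mb-Erg HG-PIN arrays but overlapped the controls slightly, at the control of replicate 3. The difference between tumours and HG-PIN of the same mice was -0.76 (SE 0.28, 95% interval -1.38 to -0.14), at an adjusted p of 0.484 by limma, which did not pass the test. Within the mice of replicates 1, 2 and 3 the tumour differed from HG-PIN by -0.66, -1.03 and -0.60.

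Masp1 encodes a serine protease of the lectin pathway. Log2 intensities of Masp1 were 2.75, 3.61 and 2.95 in control HG-PIN, 3.09, 2.90 and 3.34 in HG-PIN of T-3Mb-Erg mice, and 3.49, 3.59 and 3.36 in tumours. The group means of 3.10, 3.11 and 3.48 were all far below the receptor level, and the gene was not tested. The tumours lay above HG-PIN of the same mice by 0.40, 0.69 and 0.02, and within the range that the controls spanned.

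Serping1 is a regulator: C1 inhibitor binds and inactivates C1r, C1s and the MASP proteases, and outside complement also plasma kallikrein and factor XII. Serping1 had log2 intensities of 5.03, 4.20 and 4.30 in control HG-PIN, 5.33, 6.10 and 4.60 in HG-PIN of T-3Mb-Erg mice, and 8.79, 6.95 and 9.02 in tumours. Each tumour exceeded each HG-PIN array of either genotype, whereas the HG-PIN groups overlapped. The lowest tumour, replicate 2, and the highest HG-PIN array came from the same mouse.

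Against control HG-PIN, Serping1 rose in tumours by 3.74 on the log2 scale (SE 0.55, 95% interval 2.54 to 4.95, adjusted p = 0.0288, limma). Against T-3Mb-Erg HG-PIN the difference was 2.91 (SE 0.55, 95% interval 1.70 to 4.13, adjusted p = 0.0561). Within the mice of replicates 1, 2 and 3 the tumour exceeded HG-PIN by 3.47, 0.86 and 4.42. All 3 pairs thus pointed the same way, but the mouse of replicate 2 showed a much smaller difference than the others. Between the genotypes in HG-PIN, Serping1 differed by 0.83 (SE 0.55, 95% interval -0.38 to 2.03, adjusted p = 0.998), which was within the spread of the arrays.

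The call of Serping1 against control HG-PIN depended on single arrays and on scaling, although its sign did not. The adjusted p by limma was 0.148 without the control of replicate 1 (difference 4.004), 0.145 without the control of replicate 3 (3.64), 0.111 without the tumour of replicate 1 (3.48), 0.106 without the tumour of replicate 3 (3.25) and 0.0505 without T-3Mb-Erg HG-PIN of replicate 3 (3.74). It was 0.0714 when only the 6 arrays compared were fitted, and 0.0589 (difference 3.06) on log2(value + 16). Against T-3Mb-Erg HG-PIN, the call was gained without the tumour of replicate 2 (difference 3.49, adjusted p = 0.00924), with array weights (3.14, adjusted p = 0.00411), after quantile normalization (2.91, adjusted p = 0.0191) and with the range of the array as a term (2.82, adjusted p = 0.00991). With the mouse as a fixed block it was not called (adjusted p = 0.0988). In this comparison array weights called 405 of all genes and the range term 180, against 47 in the main fit.

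Cfi encodes factor I, the protease that inactivates C3b and C4b. Its log2 intensity was 3.99, 3.99 and 4.19 in control HG-PIN, 4.14, 3.78 and 3.50 in HG-PIN of T-3Mb-Erg mice, and 3.31, 3.37 and 3.13 in tumours. Every tumour lay below every HG-PIN array, at levels under the receptor level in all groups. The difference was -0.79 against control HG-PIN (SE 0.21, 95% interval -1.25 to -0.33, adjusted p = 0.170, limma) and -0.54 against T-3Mb-Erg HG-PIN (SE 0.21, adjusted p = 0.527), neither of which passed. With array weights the difference from control HG-PIN was -0.80 and passed (adjusted p = 0.0188). That fit called 938 of all genes in this comparison, against 30 in the main fit.

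Cd55 encodes decay-accelerating factor, a membrane protein that breaks up the convertases on host cells. The log2 intensity of Cd55 was 3.95, 3.10 and 3.999 in control HG-PIN, 4.95, 2.99 and 3.53 in HG-PIN of T-3Mb-Erg mice, and 3.90, 4.30 and 4.71 in tumours. The groups overlapped in every comparison, and the T-3Mb-Erg HG-PIN array of replicate 1 was the highest of all. The tumour lay below HG-PIN in that mouse (-1.05) and above it in the mice of replicates 2 and 3 (1.31 and 1.18). Tumours differed by 0.62 from control HG-PIN (SE 0.44, adjusted p = 0.765, limma) and by 0.48 from T-3Mb-Erg HG-PIN (SE 0.44, adjusted p = 0.949). Cd55 lies beside its copy Cd55b in the RefSeq gene table, and whether their probe sets share signal was not tested. The probe set of Cd55b had group means of 2.66, 2.62 and 2.88, below the filter.

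The receptor C3ar1 binds the C3a fragment and is known from macrophages and other myeloid cells. C3ar1 read 3.50, 3.36 and 3.38 in control HG-PIN, 3.23, 3.37 and 3.31 in HG-PIN of T-3Mb-Erg mice, and 3.60, 3.84 and 3.51 in tumours, all as log2 intensity. Each tumour lay above each HG-PIN array, by small amounts and at levels under the receptor level. The difference was 0.35 against T-3Mb-Erg HG-PIN (SE 0.19, adjusted p = 0.773, limma) and 0.24 against control HG-PIN (SE 0.19, adjusted p = 0.803). Of the 11 tested macrophage marker genes, 4 were higher and 7 lower in tumours than in T-3Mb-Erg HG-PIN. Beside 1272 of all 16635 genes at an unadjusted p under 0.05 (limma), 0 of these markers were, and 0 were called. Their summed intensity spanned 344 to 454 in control HG-PIN, 387 to 637 in T-3Mb-Erg HG-PIN and 353 to 673 in tumours, with Adgre1, a macrophage surface receptor gene, differing by 0.05 between tumours and HG-PIN of the same mice. Cd68, a lysosomal gene of macrophages, was 0.50 higher in tumours than in T-3Mb-Erg HG-PIN (adjusted p = 0.919, limma) and 0.74 higher than in control HG-PIN (adjusted p = 0.636). The part of macrophages in the C3ar1 values was not tested.

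**Figure D2:**
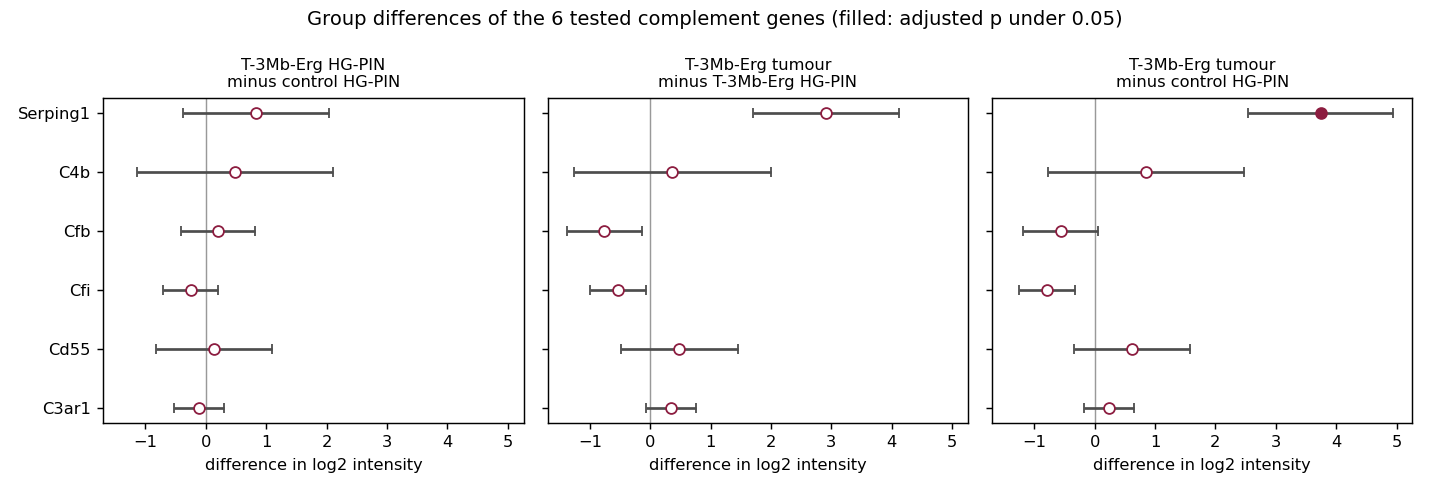
Difference in log2 intensity with its 95% interval (horizontal axis) for the 6 tested genes in each of the 3 comparisons, from limma over 9 arrays; a filled point passed the test. Serping1 against control HG-PIN, at 3.74, is the only filled point, and the intervals of C4b are the widest.

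Counted together, 0 of the 6 tested genes were called between HG-PIN of the genotypes, where 0% of all genes were called, and in 0 of 6 did the groups not overlap, against 10.1% of all genes. Between tumours and T-3Mb-Erg HG-PIN 0 of 6 were called, against 0.283% of all genes. There the groups of 4 of 6 genes (Serping1, Cfb, Cfi and C3ar1) did not overlap, against 11.4% of all genes. The same 4 of 6 genes differed in 1 direction in all 3 mice, against 24.6% of all genes. For these 4 genes the shared direction follows from the groups not overlapping, so it is not a second result. Between tumours and control HG-PIN 1 of 6 was called, against 0.18% of all genes, and 3 of 6 (Serping1, Cfi and C3ar1) did not overlap, against 13.7%. The 6 genes had median log2 differences of 0.17, 0.36 and 0.43 in these comparisons, beside 0.00, -0.01 and -0.03 over all genes tested. Because the list was drawn up with results known, these shares describe the genes and are no independent support.

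Markers of other cell types that a capture could hold were read beside Serping1. All 10 tested fibroblast markers were higher in tumours than in T-3Mb-Erg HG-PIN, with a median difference of 1.46, although 0 were called (5 at an unadjusted p under 0.05, limma, beside 1272 of all 16635 genes). Their summed intensity spanned 206 to 243 in control HG-PIN, 266 to 668 in T-3Mb-Erg HG-PIN and 503 to 3430 in tumours. Pdgfra, a receptor that marks fibroblasts, was 1.95 higher in tumours than in HG-PIN of the same mice (adjusted p = 0.168, limma). The collagen gene Col1a1 was 1.68 higher (adjusted p = 0.294). Of the 10 markers, only these 2 had tumours and T-3Mb-Erg HG-PIN that did not overlap, against 11.4% of all genes. Over the list the differences ran from 0.05 to 2.33. With array weights Pdgfra and Col1a1 passed (adjusted p = 0.0207 and 0.0448), in a fit that called 405 of all genes, against 47 in the main fit. Pdgfra had means of 3.02 in control HG-PIN and 3.36 in T-3Mb-Erg HG-PIN, under the receptor level, and 5.31 in tumours. It passed the filter on low intensity only through the tumours. The lowest intensity on any array was 1.36, so no marker could read 0, and a reading does not show that a cell type was present.

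By mouse, the mean of the fibroblast list differed between tumour and HG-PIN by 0.998, -0.0093 and 2.75 for replicates 1, 2 and 3, beside 3.47, 0.86 and 4.42 for Serping1. The mouse with the smallest Serping1 difference was thus the one with almost no difference in the fibroblast list, and the mouse with the largest had the largest. Luminal epithelial genes moved the other way, with list means differing by -3.005, -2.37 and -2.21. The keratin gene Krt8 fell by 2.88 (adjusted p = 0.0154, limma) and Epcam, an epithelial adhesion gene, fell by 2.55 (adjusted p = 0.0430). Both marker calls were lost with the mouse as a fixed block (adjusted p = 0.0505 and 0.0809). They were also lost without the tumour of replicate 1 (0.171 and 0.302) or T-3Mb-Erg HG-PIN of replicate 1 (0.142 and 0.248) or 2 (0.111 and 0.250), and that of Epcam without the tumour of replicate 2 (0.0805) or the control of replicate 3 (0.0652) and on log2(value + 16) (-1.82, adjusted p = 0.0821). Among other lists, the endothelial markers differed by 0.47, 0.073 and 0.98 in the mice of replicates 1, 2 and 3, in the same order as Serping1. Adipocyte markers differed by -0.10, 0.46 and 0.94, smooth muscle markers by -2.23, -0.88 and 1.14, and basal epithelial markers by -1.56, -1.44 and -0.88. The part of stromal, vascular or epithelial cell content in the Serping1 result was not tested.

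**Figure D3:**
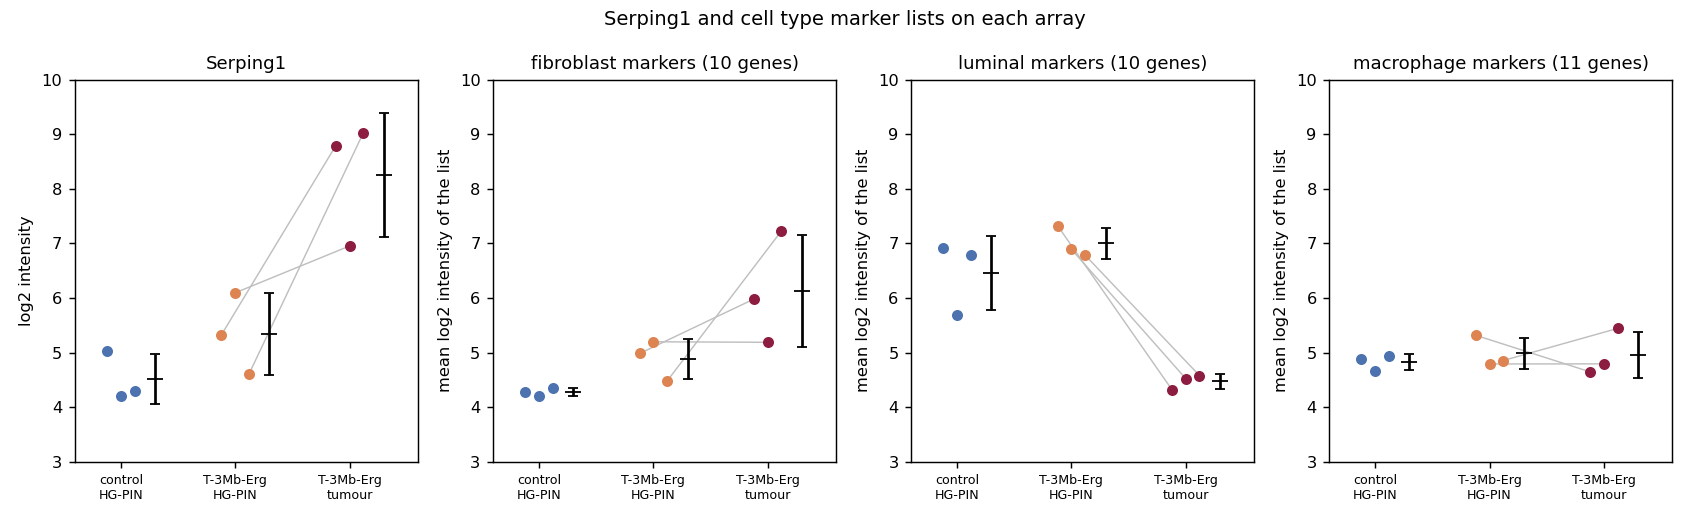
Log2 intensity of Serping1 and the mean log2 intensity of the tested fibroblast, luminal and macrophage markers (vertical axes) on each of the 9 arrays, by group; grey lines join lesions of the same mouse and bars give mean and SD (n = 3). Serping1 and the fibroblast list are highest on the tumour array of replicate 3, the luminal list is lower in all tumours, and the macrophage list overlaps between groups.

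Likeness to a gene was measured as the Pearson correlation of log2 intensity over the 9 arrays, which share 3 groups and include 3 pairs from the same mouse. The genes most like Serping1 were Cavin3 (r = 0.99), Aebp1 (0.98), Gja1 (0.97), Piezo1 (0.97) and Lbp (0.97). Cavin3 encodes a coat protein of caveolae, Aebp1 a protein of the extracellular matrix, Gja1 the gap junction protein connexin 43, Piezo1 a mechanically gated ion channel and Lbp the lipopolysaccharide binding protein. These genes were picked for likeness to Serping1 on the same arrays. Their higher levels in tumours thus follow from that choice, and their tests are no separate support. Among them, Gja1 rose in tumours against T-3Mb-Erg HG-PIN, by 3.36 (adjusted p = 0.0143, limma). The others did not pass, with differences from 0.59 for Piezo1 to 2.04 for Aebp1. With array weights Cavin3, Aebp1 and Lbp passed too (adjusted p = 0.0462, 0.00816 and 0.0115), Aebp1 also with the range term (0.0462), and Aebp1 and Lbp without the tumour of replicate 2 (0.0156 and 0.0189). Those fits called 405, 180 and 110 of all genes, against 47 in the main fit. The call of Gja1 was lost when HG-PIN of the T-3Mb-Erg mice of replicate 1 or 2 was left out (0.142 and 0.0771). It was also lost without the tumour of replicate 1 (0.106). The genes most like Cfb were Zfp13 (0.98), Asah2 (0.95), Prr27 (0.94), B3gnt3 (0.93) and Isg15 (0.91), and those most like C3ar1 were Rad51c (0.97), Dpp7 (0.93), Tgfbr3 (0.93), Rpl39l (0.92) and Rgs22 (0.91). After quantile normalization the r of Rpl39l with C3ar1 was 0.65. C3ar1 on every array, and Rad51c, Dpp7, Tgfbr3 and Rgs22 by group mean, were under the receptor level. Their likeness thus rests on dim readings.

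The wider complement system was described through 56 other symbols, of which 48 had a probe set, 37 were tested and 7 of those had a mean above the receptor level. Of the 37, 21 were higher and 16 lower in tumours than in T-3Mb-Erg HG-PIN, with a median difference of 0.05. Beside 47 of all 16635 genes, 1 of the 37 was called. That gene was Clu, which encodes clusterin, a secreted chaperone that blocks the terminal complex. Clu read 8.49, 8.43 and 9.61 in control HG-PIN, 8.88, 8.94 and 7.99 in HG-PIN of T-3Mb-Erg mice, and 5.61, 4.67 and 6.06 in tumours, as log2 intensity. All tumours lay below all HG-PIN arrays of both genotypes.

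Clu fell by 3.15 against T-3Mb-Erg HG-PIN (8.90-fold, SE 0.51, adjusted p = 0.0328, limma) and by 3.39 against control HG-PIN (10.5-fold, SE 0.50, adjusted p = 0.0288). The first call was lost without the tumour of replicate 1 (-3.26, adjusted p = 0.211) or 2 (-2.80, 0.0540), without T-3Mb-Erg HG-PIN of replicate 1 (-3.002, 0.240) or 2 (-3.07, 0.241), with the mouse as a fixed block (0.0753) and on log2(value + 16) (-2.74, 0.0634). The second was lost without the control of replicate 1 (-3.57, 0.148) or 3 (-3.01, 0.136), the tumour of replicate 1 (-3.50, 0.111) or 3 (-3.79, 0.0577), or T-3Mb-Erg HG-PIN of replicate 3 (-3.39, 0.0503), with only the 6 arrays compared (0.0714) and on log2(value + 16) (-2.97, 0.0693). Clu fell together with the luminal markers described above, and their part in its decrease was not tested.

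**Figure D4:**
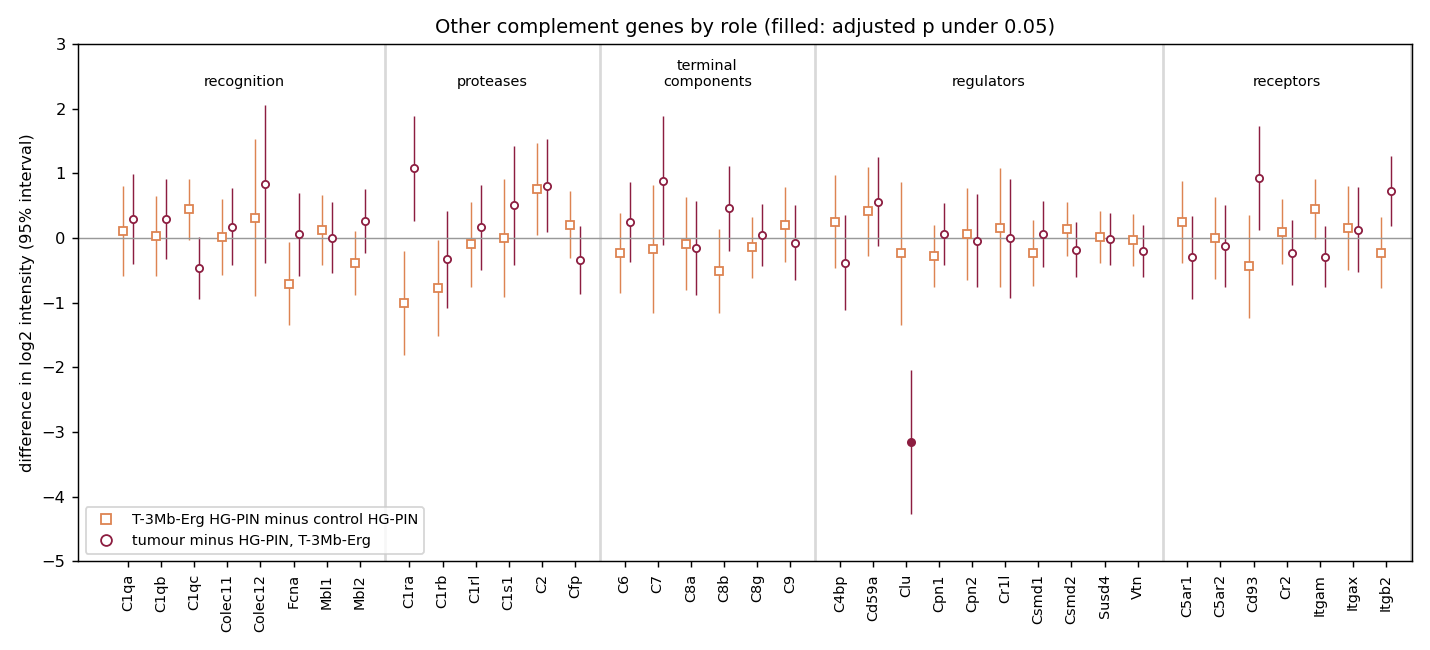
Difference in log2 intensity with its 95% interval (vertical axis) for the 37 tested genes of the wider complement list (horizontal axis, grouped by role) between HG-PIN of the genotypes (squares) and between tumour and HG-PIN of T-3Mb-Erg mice (circles); filled symbols passed the test. Clu, at -3.15, is the only filled symbol.

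The recognition molecules of the classical and lectin pathways gave no calls: among 8 tested, 7 were higher and 1 lower in tumours than in T-3Mb-Erg HG-PIN, from -0.46 to 0.84. C1qa and C1qb, chains of C1q made largely by macrophages, differed by 0.41 and 0.32 between tumours and control HG-PIN (adjusted p = 0.794 and 0.819, limma). C1qc, the remaining chain, named after its values were seen, differed by -0.016 there and by -0.46 between tumours and T-3Mb-Erg HG-PIN, whose arrays did not overlap (adjusted p = 0.685). The log2 intensity of C1qb was between 4.93 and 5.09 on 8 arrays and 5.90 on the tumour array of replicate 3. This was the array on which C4b was also highest.

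Of 6 further tested genes, properdin and proteases, 0 were called. In tumours against T-3Mb-Erg HG-PIN, 2 had an unadjusted p under 0.05 (limma), beside 1272 of all 16635 genes. C1ra, which encodes the C1r protease inhibited by the Serping1 product, read 5.81, 6.23 and 6.70 in control HG-PIN, 5.08, 4.92 and 5.75 in HG-PIN of T-3Mb-Erg mice, and 6.45, 6.69 and 5.84 in tumours. T-3Mb-Erg HG-PIN lay below both other groups without overlap, by -0.999 against control HG-PIN (adjusted p = 0.998), while the tumours exceeded it by 1.08 (adjusted p = 0.422). Tumours and control HG-PIN differed by 0.08. Properdin (Cfp), which stabilises the alternative convertase, differed by -0.35 between tumours and T-3Mb-Erg HG-PIN (adjusted p = 0.877). C1rb, named after its values were seen, differed by -1.10 between tumours and control HG-PIN (adjusted p = 0.261, limma). Its groups overlapped there, and all its group means were under the receptor level.

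C2, chosen after its values were seen, encodes the protease partner of C4 and neighbours Cfb in the RefSeq gene table. Its log2 intensity was 3.79, 3.66 and 3.40 in control HG-PIN, 4.43, 4.54 and 4.16 in HG-PIN of T-3Mb-Erg mice, and 6.02, 5.02 and 4.53 in tumours. The controls lay below both other groups, and the tumours overlapped T-3Mb-Erg HG-PIN. Of all genes, 10.1% did not overlap between HG-PIN of the genotypes and 13.7% between tumours and control HG-PIN. All HG-PIN arrays and the tumour of replicate 3 were under the receptor level. The difference between tumours and control HG-PIN was 1.57 (SE 0.33, adjusted p = 0.0859, limma). It did not pass except with array weights (2.07, adjusted p = 0.00225), a fit that called 938 of all genes. Against T-3Mb-Erg HG-PIN the difference was 0.81 (adjusted p = 0.543), where Cfb differed by -0.76.

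The terminal components gave 0 calls among 6 tested in tumours against T-3Mb-Erg HG-PIN (0 at an unadjusted p under 0.05, limma), with differences from -0.16 to 0.89. The 7 tested receptors, again with 0 calls, ranged from -0.30 to 0.93. Of these receptors, 2 had an unadjusted p under 0.05 (limma), beside 1272 of all 16635 genes. Regulators other than Clu, 9 of the 10 tested, were not called. Among these, Cd59a, named after its values were seen, was 0.97 higher in tumours than in control HG-PIN (adjusted p = 0.284, limma). Its arrays did not overlap there, as for 13.7% of all genes, and its HG-PIN group means were under the receptor level. Hepatocyte markers were low throughout, since none of the 6 tested had a group mean above the receptor level in any group.

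Genes that are often switched on together with complement gave no calls between tumours and T-3Mb-Erg HG-PIN. Among 12 tested targets of interferon gamma, a cytokine known to induce Serping1, Cfb and C4b, all 12 were lower in tumours than in T-3Mb-Erg HG-PIN, with a median difference of -0.29 and 0 called (4 at an unadjusted p under 0.05, limma, beside 1272 of all 16635 genes). By mouse, their mean differed by -0.64, -0.47 and -0.37. The part of this cytokine in the complement values was not tested. Of 14 acute phase and NF-kappaB targets, 6 were higher and 8 lower, and 0 were called (2 at an unadjusted p under 0.05). The median difference of these targets was -0.02. Lcn2, an acute phase gene of epithelium, differed by -2.44 (adjusted p = 0.113), which passed with array weights (adjusted p = 0.00831), with the range term (0.0146), and without the tumour (0.00566) or T-3Mb-Erg HG-PIN (0.0284) of replicate 3. Those fits called 405, 180, 94 and 99 of all genes, against 47 in the main fit. Saa3, the other fixed marker of the acute phase list, differed by 0.32 (SE 1.02, adjusted p = 0.995, limma). Its tumours read 4.86, 4.32 and 8.66. C1 inhibitor also acts in coagulation, fibrinolysis and the kinin system. Among 10 tested serpins, proteases and receptors of these systems, 5 were higher and 5 lower, from -0.21 to 2.01. Of them 0 were called and 1 had an unadjusted p under 0.05 (limma), beside 1272 of all 16635 genes. The lowest adjusted p was 0.0506. In the mice of replicates 1, 2 and 3 their mean differed by 0.64, 0.34 and 0.22. Against control HG-PIN 8 were higher and 2 lower, with 0 called.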

How the data were processed

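The 9 arrays (Affymetrix Mouse Gene 2.0 ST, 1 channel, 1 array per capture) were grouped by genotype, lesion and mouse in the labels; the genotypes are not reported here in full. Per the labels' protocols, RNA from fixed tissue was amplified with a NuGEN Ovation system. The authors deposited linear intensity values, from 1.36 to 13922, for 41345 probe sets. How they corrected background, summarised probes and normalized is not given in the sources used here; an unknown scaling may affect the differences. Arrays have no depth, and their number limits the precision (median half-width of a 95% interval 0.59).

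Gene names came from the platform annotation (1 symbol for 23521, of which 23328 matched an Entrez identifier; several for 1814; none for 16010), and the brightest was kept per symbol. The deposited intensity values were log2-transformed with a floor of 1, and the lowest 25% of genes by mean (under 3.25) were removed. The limma model (version 3.58.1, R 4.3.3) fitted group means over all 9 arrays, with the mouse as a random block (consensus correlation -0.01), empirical Bayes with a mean trend, and Benjamini-Hochberg adjustment over 16635 genes. An adjusted p is from this model unless an alternative is named, and genes under 0.05 are called. Same-mouse deviations from the group means correlated at 0.17, 0.10 and -0.30; the pairing itself comes from the mouse identifiers in the labels. The script was tested on simulated data. Each array of a group came from a different mouse. P-values rest on the spread of arrays within groups, pooled over all 9 arrays and moderated across genes. With a consensus correlation of -0.01, captures of the same mouse counted almost as separate arrays. For tumours against T-3Mb-Erg HG-PIN, which share mice, p-values thus do not measure the spread of the within-mouse differences.

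Members and lists were chosen with earlier results of these data known. Named were all members; of the wider complement list, every called gene and the 2 largest differences per comparison among genes with a mean above the receptor level; the 5 most like genes of Serping1, Cfb and C3ar1, without predicted models; and fixed marker genes. Alternatives were the 6 arrays compared, array weights, log2(value + 16), quantile normalization, other filters, the array's 95th percentile as a term, a fixed mouse block and each array left out. Likeness on the other scalings was added after seeing the data. Sequences of the members were not used here.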

Additional observations from a re-analysis of the deposited data

How the results depend on the processing

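Between HG-PIN of the genotypes, 0 genes were called, and 4 with the 6 arrays compared, 9 with array weights, 6 with array range as a term and 0 to 6 with single arrays left out. Between tumours and T-3Mb-Erg HG-PIN, 47 were called, and 15 when mice entered as a fixed replicate block, 405 with array weights, 18 on log2(value + 16), 84 after quantile normalization, 180 with the range term and 0 to 110 with single arrays left out. Between tumours and control HG-PIN, 30 were called, and 7 with the 6 arrays, 938 with array weights, 8 on log2(value + 16), 88 after quantile normalization, 171 with the range term and 0 to 261 with single arrays left out. Of the 6 tested complement genes, 0 were called in tumours against T-3Mb-Erg HG-PIN and 1 with array weights, quantile normalization or the range term. Against control HG-PIN 1 was called, but 0 with the 6 arrays or log2(value + 16) and 2 with array weights; leaving out single arrays gave 0 to 1 in both comparisons. The replicate block left Serping1 at 2.91 (adjusted p = 0.0988, limma); no such fit was possible for the other comparisons, because mice are nested in genotype there. The sign of the Serping1 difference held in all alternatives run in the 3 comparisons.

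Signs turned for several genes that were not called in the comparison concerned, among them C4b, whose 0.85 against control HG-PIN was -0.21 without the tumour of replicate 3. Between HG-PIN groups signs turned for Cd55 (-0.34 with array weights, -0.060 with the range term), C1qa (-0.039, weights), C1qb (-0.026, range term), Epcam (-0.055, weights) and Lcn2 (-0.20 after quantile normalization, -0.17 with the range term), and between tumours and control HG-PIN C1ra (-0.027, quantile normalization). Leaving out single arrays moved the HG-PIN differences between -0.39 and 0.56 for Cd55, -0.45 and 0.16 for Clu, -0.10 and 0.42 for C1qa, -0.29 and 0.53 for Epcam, -0.23 and 0.15 for Adgre1, and -0.20 and 0.67 for Lcn2. In tumours against T-3Mb-Erg HG-PIN it moved C4b between -0.69 and 1.13, C1qa between -0.015 and 0.51, and Adgre1 between -0.12 and 0.25. Against control HG-PIN it moved C4b between -0.21 and 1.62, C1ra between -0.14 and 0.40, and Adgre1 between -0.059 and 0.089. The cause of these shifts was not tested. Likeness to C3 could not be run, because C3 was not measured here.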
